A study of Mus musculus with 6 samples.

Results

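Plasmacytoid dendritic cells of mouse mammary tumours and residual tumour tissue were chosen by the raw unique molecular identifiers (UMIs, counts of captured mRNA molecules) of a few genes in single-cell RNA data, and 160 of the 18293 kept cells met the rule. Kept cells had no fewer than 500 UMIs and 200 genes, with 20% or less of their UMIs mitochondrial. It then needed at least 1 UMI of Siglech, a sialic acid-binding lectin of the plasmacytoid surface. It also needed at least 1 UMI summed over Ccr9 (a chemokine receptor), Klk1 (a tissue kallikrein), Cox6a2 (a subunit of cytochrome c oxidase) and Tcf4 (the E protein that sets the plasmacytoid fate). No UMI of the T cell gene Cd3e or the epithelial gene Epcam was allowed, and at most 2 UMIs of the macrophage genes C1qa, C1qb and C1qc together. Long-term dormant held 72 members (45.0% of the 160), Dormant 65 (40.6%), Recurrent 14 and Primary 9. By share of a library's cells, Dormant was highest.

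The mice were of strain FVB (FVB.rGH-Luc-GFP) and carried transplanted mammary tumours in which the MMTV promoter, active in mammary epithelium, drives Wnt1, beside an FGF receptor that a dimerizer drug switches on. The genotype is labelled MMTV-Wnt1/iFGRR2 for Primary (age 8 to 10 weeks), MMTV-Wnt1/iFGRR1 for Dormant (10 to 12 weeks), MMTV-Wnt1/iFGRR4 for Long-term dormant (32 to 34 weeks) and MMTV-Wnt1/iFGRR3 for Recurrent (20 to 22 weeks). All recipients had the B/B homodimerizer until the transplants had taken. Residual disease was produced with 14 days of NVP-BGJ398, an FGF receptor inhibitor, followed by 14 days off drug, after which tissue was collected, kept for longer, or left until tumours regrew. Another pair of libraries, IgG (MMTV-Wnt1/iFGRR5) and Jag1 (MMTV-Wnt1/iFGRR6), both from mice of 16 weeks, came from residual disease given control IgG or anti-Jagged-1 at 15 mg/kg weekly for 5 weeks. These were made with version 3 of the Chromium kit and the 4 stage libraries with version 2, so values are not compared between the sets. Each group was 1 library and the labels do not say how many animals it held, so no difference between groups has a replicate check, no test was run, and stage and age cannot be told apart.

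Plasmacytoid dendritic cells are a rare blood-borne lineage that detects viral and self nucleic acids through receptors in endosomes and can release large amounts of type I interferon. The E protein encoded by Tcf4 holds their fate, and Spib, Runx2, Irf8 and Bcl11a encode other factors of the lineage. Unlike conventional dendritic cells, they have a secretory cell form close to that of plasma cells and, at rest, present antigen on MHC class II poorly. In tumours they have been described in resting or tolerance-promoting states.

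The genes that chose the cells lie at Siglech on chromosome 7 (55768178 to 55778925), Ccr9 on chromosome 9 (123678439 to 123784330), Klk1 on chromosome 7 (44225360 to 44229618) and Cox6a2 on chromosome 7 (128205435 to 128206387), all protein-coding, on mm10, with Tcf4 elsewhere. E proteins bind the E-box, CANNTG, so the 240 bases that end 10 bases before the annotated RefSeq start (GRCm38.p6) are shown for 3 of these genes and for Bst2, the marker with a UMI in the most members. The windows are Siglech at chr7:55767934-55768173 (plus strand), Ccr9 at chr9:123766961-123767200 (plus), Klk1 at chr7:44225110-44225349 (plus) and Bst2 at chr8:71537483-71537722 (minus), printed 5' to 3' on the gene's strand with each CANNTG in capitals.
Siglech: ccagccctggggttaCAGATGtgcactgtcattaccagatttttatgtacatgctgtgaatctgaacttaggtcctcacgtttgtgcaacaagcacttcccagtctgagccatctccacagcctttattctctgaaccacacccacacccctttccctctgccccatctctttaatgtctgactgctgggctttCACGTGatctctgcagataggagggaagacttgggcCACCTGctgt
Ccr9: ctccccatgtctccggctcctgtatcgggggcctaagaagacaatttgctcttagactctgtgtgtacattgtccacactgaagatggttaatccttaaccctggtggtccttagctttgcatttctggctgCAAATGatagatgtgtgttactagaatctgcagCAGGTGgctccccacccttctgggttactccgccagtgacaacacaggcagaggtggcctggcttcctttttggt
Klk1: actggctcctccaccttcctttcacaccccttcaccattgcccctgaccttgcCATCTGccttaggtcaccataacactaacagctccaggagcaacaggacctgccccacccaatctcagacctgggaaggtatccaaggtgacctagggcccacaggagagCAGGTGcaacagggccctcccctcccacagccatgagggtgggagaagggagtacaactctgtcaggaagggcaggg
Bst2: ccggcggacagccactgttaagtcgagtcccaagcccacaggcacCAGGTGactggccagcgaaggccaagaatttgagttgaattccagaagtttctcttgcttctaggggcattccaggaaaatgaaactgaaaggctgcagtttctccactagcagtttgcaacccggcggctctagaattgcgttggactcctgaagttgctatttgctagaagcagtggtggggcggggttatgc
Counted back from the start site, the Siglech window held CAGATG at -235, CACGTG at -56 and CACCTG at -20. Ccr9 had CAAATG at -118 and CAGGTG at -85, Klk1 had CATCTG at -197 and CAGGTG at -87, and Bst2 had CAGGTG at -205. CANNTG reads the same on both strands and was present in 65.0% of all 32851 windows of this length in the RefSeq table, and CAGGTG or its reverse CACCTG in 16.6%. Of the 30 genes listed as plasmacytoid outside the rule, 21 had an entry, with 24 windows, of which 66.7% held CANNTG and 20.8% CAGGTG or CACCTG. A match describes the letters only.

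The stage libraries held 14185689 to 41259292 UMIs. Median UMIs per member were 3779 for Dormant (956 to 22480, 358168 summed over the members), 1910.5 for Long-term dormant (513 to 10772, 173344 summed), 3472 for Primary (1726 to 4750, 31695 summed) and 3970.5 for Recurrent (2406 to 4537, 52368 summed). The Long-term dormant members were thus the shallowest by median. Fewer than 1% of barcodes (at most 0.977% of the smaller library) were shared between any 2 stage libraries, and no barcode was a member in 2 of them. Doublets were not removed, since Scrublet marked 0 of 3276 Dormant cells and so did not work there. Members with 2 or more UMIs over the defining markers of another cell type numbered 22 of 65 for Dormant, 19 of 72 for Long-term dormant, 7 of 9 for Primary and 9 of 14 for Recurrent. In Primary and Recurrent all of these had macrophage markers (27 to 31 UMIs in all, mostly Apoe), and in Long-term dormant 17 of the 19 had the fibroblast markers Col1a1, Col1a2 or Dcn. Those 3 genes summed to 915 UMIs over Dormant members, of which 515 were in 1 cell, and 357 over Long-term dormant members, and were at 0 for Primary and Recurrent. T cell receptor complex genes Cd3d, Cd3g and Trac summed to 18 UMIs in Dormant members and 1 in Long-term dormant, and the natural killer genes Ncr1, Klrb1c, Gzma and Nkg7 to 84 and 1. The B cell genes Ms4a1 and Pax5 were at 0 in the members of every library.

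Members made up 1.98% of kept Dormant cells (95% exact Clopper-Pearson interval 1.53 to 2.52%) and 1.20% of Long-term dormant cells (0.939 to 1.51%). Among Primary cells the share was 0.208% (0.0951 to 0.394%) and among Recurrent cells 0.299% (0.163 to 0.501%). Both residual-tissue shares lay above both tumour shares, beyond these intervals, which cover counting error only. Dormant lay above Long-term dormant as well, while Primary and Recurrent overlapped. Among cells with a UMI of the leukocyte gene Ptprc the order was the same, at 3.03% for Dormant, 2.29% for Long-term dormant, 0.770% for Recurrent and 0.631% for Primary, with the Dormant and Long-term dormant intervals overlapping (2.25 to 3.98% and 1.62 to 3.13%). Without the limits on Cd3e, C1q and Epcam, 3.69% of Dormant and 1.35% of Long-term dormant cells qualified, and the 56 Dormant cells added had a median of 10132.5 UMIs. Leaving out the members with UMIs of another type gave 1.31% for Dormant, 0.883% for Long-term dormant, 0.107% for Recurrent and 0.0462% for Primary. The IgG library held 11 members of 2122 cells (0.518%, 0.259 to 0.926%) and Jag1 8 of 2729 (0.293%, 0.127 to 0.577%), with overlapping intervals.

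The balance with conventional dendritic cells went another way. Conventional dendritic cells here were Siglech-free cells with Xcr1 or Clec9a (type 1), Cd209a (type 2) or Fscn1 with Ccr7 (migratory), and they numbered 66 for Dormant, 520 for Long-term dormant, 34 for Primary and 32 for Recurrent. Plasmacytoid cells were 49.6% of all dendritic-gated cells in Dormant (40.8 to 58.5%, 65 of 131) and 12.2% in Long-term dormant (9.64 to 15.1%, 72 of 592). Values were 20.9% (9 of 43) for Primary and 30.4% (14 of 46) for Recurrent. The numbers of members were 65 and 72, while those of conventional cells were 66 and 520.

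**Figure D1:**
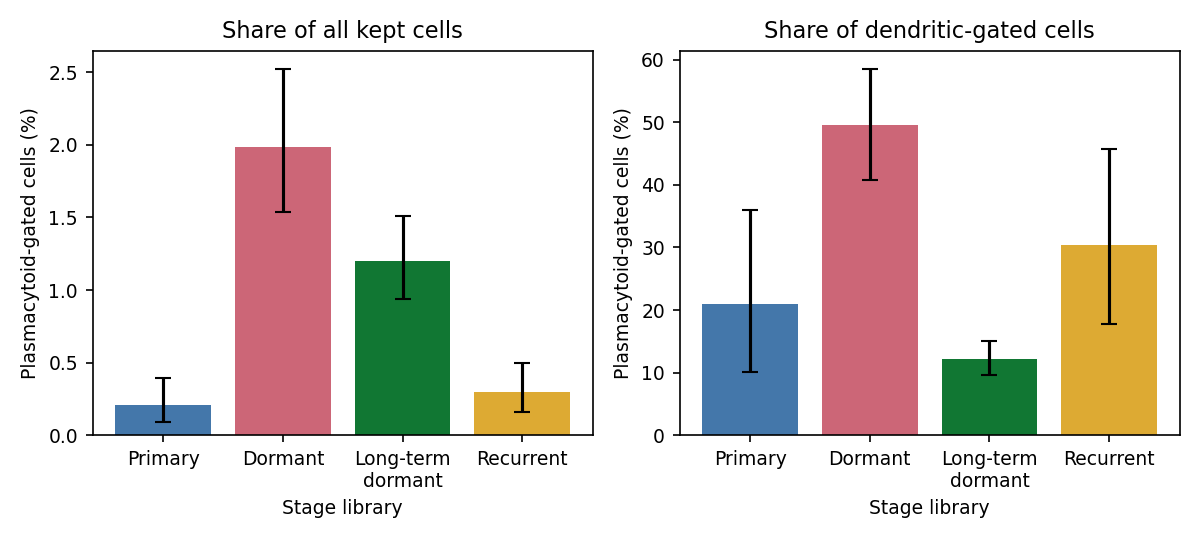
Share of kept cells that met the plasmacytoid rule (percent, left) and share of dendritic-gated cells that did (percent, right) in each library, with exact 95% binomial intervals as bars. Dormant is highest in both panels, at 1.98% and 49.6%, and Long-term dormant is second on the left (1.20%) and lowest on the right (12.2%).

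The rule let in cells with little Siglech. In Dormant, 29 members had 1 Siglech UMI, 16 had 2 and 20 had 3 or more, and in Long-term dormant 44, 21 and 7. Of the second markers, Ccr9 was seen in 60 Dormant members, Cox6a2 in 53, Tcf4 in 37 and Klk1 in 36. In Long-term dormant Tcf4 was seen in 64 members, Ccr9 in 42, Cox6a2 in 37 and Klk1 in 35, and for 7 members Tcf4 was the only second marker. Klk1 has close relatives in the kallikrein family, so its reads are uncertain.

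The name was checked on 11 plasmacytoid markers that the rule did not use: Bst2, Irf8, Spib, Runx2, Ly6d, Pacsin1, Cd300c, Lair1, Pld4, Rpgrip1 and Tlr9. The median member had UMIs of 7 of them in Dormant and Recurrent, 6 in Primary and 5 in Long-term dormant, against 1 in all other kept cells. At least 4 were seen in 144 of the 160 members and in 1453 of the 18133 other kept cells. Of the latter, 591 were among 4319 Primary cells and 576 among 4671 Recurrent cells. After each cell was thinned to 1000 UMIs, the medians were 4 for Dormant and Primary, 3 for Long-term dormant and 5 for Recurrent, against 1 in conventional dendritic cells of each stage library and 0 in T cells of Dormant and Long-term dormant. Thinning left out 1 Dormant and 11 Long-term dormant members that were too shallow. Tlr9, the receptor for unmethylated DNA, was at 0 in the members of all 6 libraries, and the stage table held only 11 Tlr9 UMIs in all kept cells, against 563 of Tlr7. Rpgrip1 was at 0 in Primary and Long-term dormant members, and had a UMI in 5 of 65 Dormant and 1 of 14 Recurrent members. Cells just inside the rule, with 1 Siglech UMI and 1 UMI of a second marker, had a median of 4 markers (7 cells). Of cells just outside, 5 with Siglech but no second marker had a median of 1. Cells that met both marker needs but failed a limit had medians like those of members. These were 6 for Cd3e (54 cells, 44 of them Dormant), 7 for C1q (25 cells) and 6 for Epcam (25 cells). Their median depths were 7062, 13111 and 12381 UMIs. A further 75 cells had no Siglech UMI but 2 or more over Ccr9, Klk1 and Cox6a2, and 59 of them had at least 4 of the 11 markers. In unsupervised clusters, 49 of the 65 Dormant members shared 1 cluster with 43 non-members, and 66 of the 72 Long-term dormant members shared 1 with 94 non-members, 84 of which had a second marker and no Siglech. The rule thus took in fewer cells than these clusters.

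**Figure D2:**
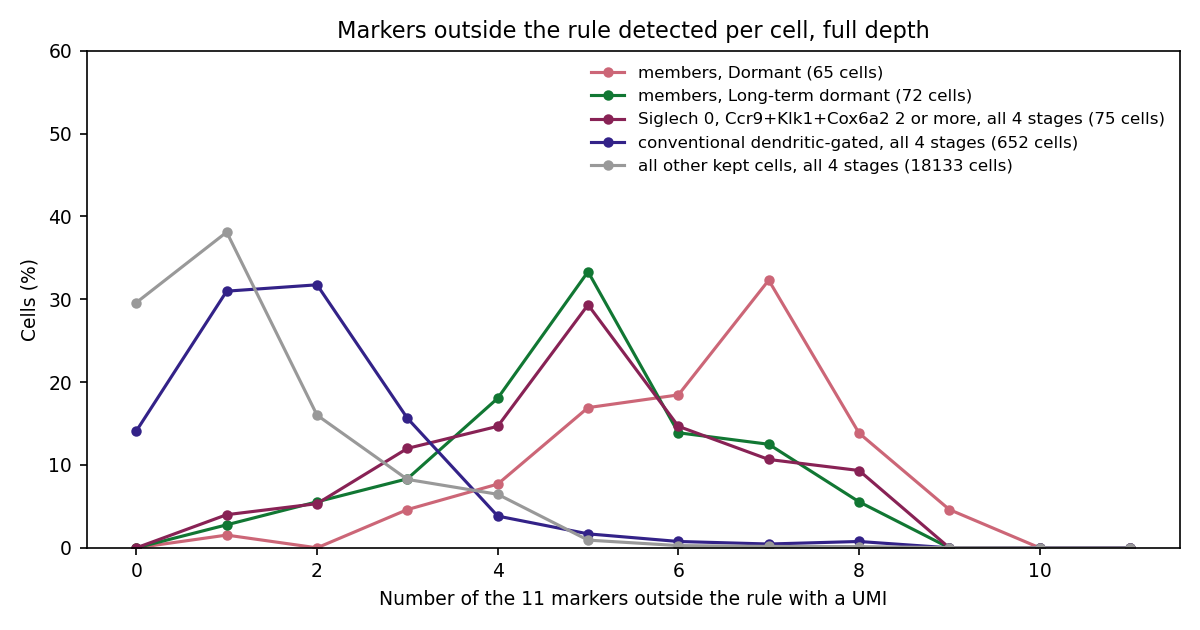
Number of the 11 plasmacytoid markers outside the rule that had a UMI (x axis) against the percent of cells in the set (y axis), for Dormant members, Long-term dormant members, Siglech-free cells with 2 or more UMIs over Ccr9, Klk1 and Cox6a2, conventional dendritic cells and all other kept cells. Lines join the points of a set. Dormant members centre on a median of 7 markers, Long-term dormant members on 5 and other kept cells on 1.

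Free RNA can give UMIs to cells that lack a gene, so T cells, which should lack Siglech, were read beside the members. They had a UMI of it in 2.50% of those in Dormant (37 of 1479 cells, median 2530 UMIs) and 2.61% in Long-term dormant (6 of 230, median 1804.5 UMIs), and in 0.479% and 0.239% of Primary and Recurrent. The 44 Dormant cells with Siglech, a second marker and a Cd3e UMI had medians of 6 of the 11 markers and 9120.5 UMIs. The T cell shares can thus hold doublets as well as free RNA, and the part of each was not tested. Spib, the ETS factor of the lineage, had a UMI in 83.1% of Dormant members and 3.11% of Dormant T cells, and in 61.1% and 0.870% in Long-term dormant. Ly6d, a surface marker also found on lymphoid progenitors and epithelium, had a UMI in 81.5% of Dormant members and 4.46% of T cells, but in 37.8% of epithelial cells.

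The level of each gene was then read from the summed UMIs of the members, per 1000000 UMIs (CPM), against the conventional dendritic cells of the same library, which share its depth and kit. A log2 ratio has an exact 95% interval for counting error, and a gene is called past 2-fold where that interval lies wholly outside 2-fold. Of 4008 genes with at least 20 UMIs in Dormant, 147 were past 2-fold higher (3.67%) and 67 lower (1.67%). In Long-term dormant, 214 of 7308 were higher (2.93%) and 67 lower (0.917%). Of the 147 Dormant genes, 63 were also past 2-fold higher in Long-term dormant (42.9% of the Dormant and 29.4% of the Long-term dormant calls). Against all other kept cells of Dormant, 250 of 11982 genes were past 2-fold higher (2.09%) and 132 lower (1.1%). Against conventional cells, the median log2 ratio of all genes tested was 0.11 in Dormant and 0.25 in Long-term dormant. Since genes that go with Siglech had to differ here, these values are a description and no test.

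The steepest Dormant ratios came partly from single cells. Among the 15 highest were Sfrp2, Saa3, Crabp1, Ctsk, Acta2, Ecrg4, Col6a1, Cxcl12, Col1a1 and Col1a2, genes of fibroblasts or of other tissue cells, and 1 member gave all UMIs of Sfrp2. Therefore the genes past 2-fold in both libraries were set apart, with the higher ones also seen in at least 10 members of each, a rule chosen after seeing the data. Without the genes of the rule and of the reference gates, it gave 54 genes higher and, with no minimum of members, 29 lower, and 34 of the 54 were in none of the lists. All 54 also had UMIs in the members of Recurrent, IgG and Jag1, and 53 in the 9 Primary members. The minimum of 10 members favours readily detected genes. The share of all tested genes with a UMI in those sets was not computed, so these counts are a description only.

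**Figure D3:**
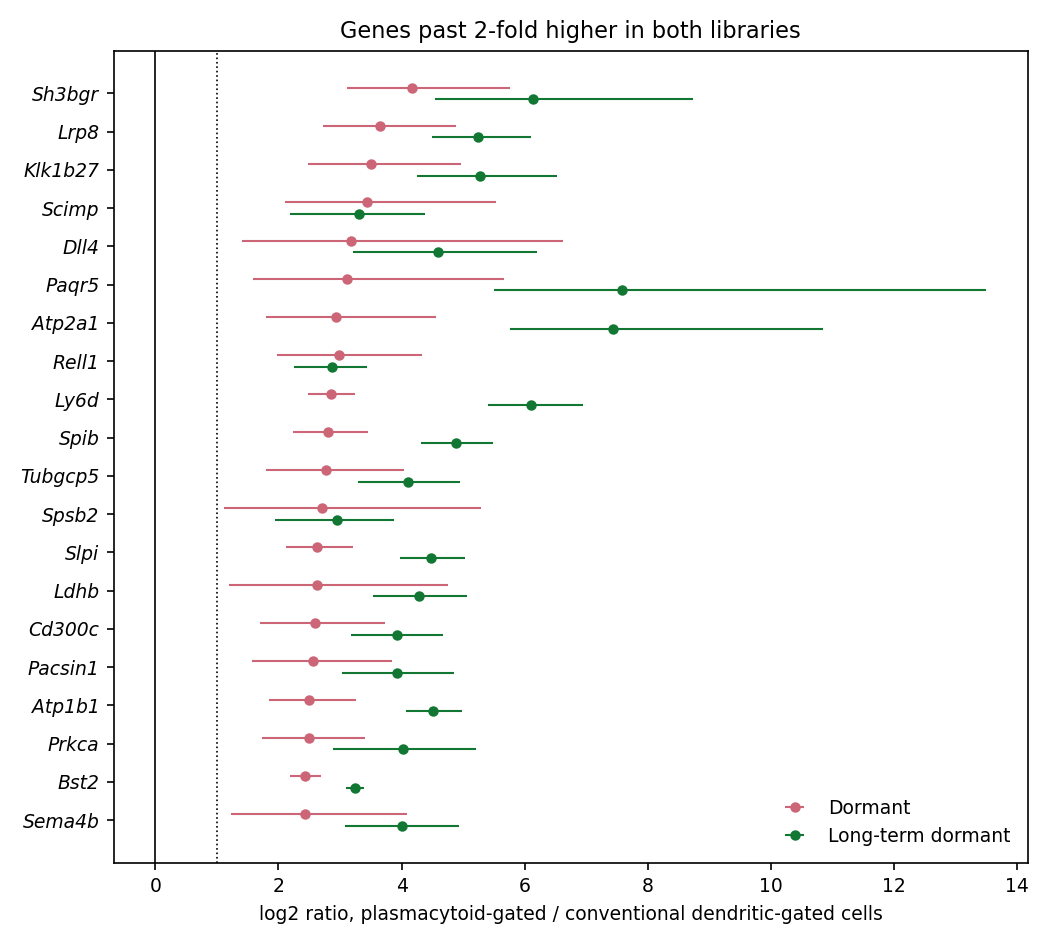
Log2 ratio of plasmacytoid over conventional dendritic cells (x axis) in Dormant and Long-term dormant for the 20 genes (y axis) that rank highest by the smaller of their ratios in the 2 libraries, among the 54 past 2-fold higher in both. Bars are exact 95% counting intervals and the dotted line is 2-fold. Sh3bgr is at the top (4.18 and 6.15), and Bst2 has the narrowest intervals (2.43 and 3.24).

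Several of the 54 genes encode surface or secreted proteins. Bst2, the tetherin that marks mouse plasmacytoid cells, had UMIs in 64 of 65 Dormant and all 72 Long-term dormant members, with a median of 10 and 8 UMIs per cell. It stood at 2016 against 372 CPM in Dormant (log2 ratio 2.43, 2.19 to 2.69) and 3634 against 384 CPM in Long-term dormant (3.24, 3.09 to 3.39). Its median per member was 16 UMIs in Primary and 13.5 in Recurrent. Ly6d was at 1134 against 157 CPM in Dormant (2.85, 2.48 to 3.25) and 548 against 7.76 CPM in Long-term dormant (6.11, 5.41 to 6.96). Slpi, a secreted protease inhibitor, was at 497 against 79.4 CPM and 485 against 21.5 CPM. Plac8, shared with monocytes, was at 2337 against 617 CPM and 2896 against 599 CPM. Grn, the lysosomal growth factor progranulin, had ratios of 2.11 and 2.79.

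Several genes from outside the lists were among the 54. Sh3bgr, which encodes a small thioredoxin-like protein, was at 265 against 13.6 CPM in Dormant (log2 ratio 4.18, 3.11 to 5.77, in 44 members) and 104 against 1.29 CPM in Long-term dormant (6.15, 4.55 to 8.73, in 14 members). Lrp8, a lipoprotein and reelin receptor, was at 268 against 20.4 CPM and 317 against 8.19 CPM, in 36 and 28 members. Atp2a1, a calcium pump of the sarcoplasmic reticulum best known from muscle, was at 112 against 13.6 CPM and 185 against 0.862 CPM. Atp1b1, a sodium pump subunit, was at 288 against 49.9 CPM (2.50, 1.85 to 3.26) and 663 against 28.9 CPM (4.52, 4.08 to 4.98). Ldhb, the lactate dehydrogenase subunit of oxidative tissue, had ratios of 2.62 and 4.28 in 14 and 24 members. Klk1b27, a kallikrein next of kin to Klk1 whose reads may be mixed with it, had ratios of 3.51 and 5.28.

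Of the 30 plasmacytoid genes outside the rule, 24 were tested in each library, and 14 in Dormant and 22 in Long-term dormant were past 2-fold higher, none lower (medians 1.73 and 2.95). This direction follows from how the cells and the list were chosen. Pacsin1, a membrane-bending protein, was at 126 against 20.4 CPM and 138 against 9.05 CPM. The lineage factors were less uniform. Of the transcription factor list, 3 of 17 were past 2-fold higher in Dormant and 1 lower, and 5 of 20 higher in Long-term dormant (medians 0.06 and 0.54, and -1.20 in Dormant without members with other-type UMIs). Spib was at 450 against 63.5 CPM (log2 ratio 2.80, 2.24 to 3.46) and 473 against 15.9 CPM (4.88, 4.31 to 5.49), and Bcl11a, a zinc finger repressor, had ratios of 2.00 and 2.04. Tcf12, another E protein, was at 2.17 and 1.53 (0.62 to 2.29). By contrast Irf8, which conventional type 1 cells also need, was at 528 against 477 CPM in Dormant (0.15, -0.14 to 0.44) and at 1033 against 249 CPM in Long-term dormant (2.05, 1.80 to 2.30). Runx2, needed for plasmacytoid cells to leave the bone marrow, was at 50.3 against 22.7 CPM in Dormant (1.12, -0.04 to 2.43) and 346 against 29.3 CPM in Long-term dormant (3.56, 3.04 to 4.08). Beyond counting error, 6 of the 17 listed factors were lower in Dormant and 4 higher. In Long-term dormant 4 of the 20 were lower and 10 higher. Among all genes tested, 11.8% and 6.23% were lower and 18.9% and 13.1% higher. Lower genes included Batf3 of type 1 cells, at -2.11 (-3.38 to -1.14) and -1.36 (-2.58 to -0.49). Id2, the inhibitor of E proteins, was at -1.04 and -1.06, and Spi1 at -1.30 in both.

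For nucleic acid sensing, 3 of 14 listed genes in Dormant and 4 of 17 in Long-term dormant were past 2-fold higher and none lower, with medians of 0.95 and 0.88. These were the exonuclease gene Pld4 (695 against 254 CPM, then 698 against 269 CPM), the proteases Ctsl (385 against 77.1 CPM, then 646 against 101 CPM) and Ctsb (924 against 318 CPM, then 1171 against 392 CPM), and in Long-term dormant also Unc93b1, the chaperone that carries endosomal receptors (335 against 113 CPM, 1.57, 1.13 to 1.98). Slc15a4, a lysosomal transporter needed for the same signals, had ratios of 1.94 (0.81 to 3.35) and 1.52 (0.67 to 2.23). Tlr7, the receptor for single-stranded RNA, had 8 UMIs in Dormant members and 10 in Long-term dormant, against 2 UMIs in each set of conventional cells, too few for the count of tested genes. The adaptor gene Myd88 was at -0.42 (-1.47 to 0.54) and -0.44 (-2.51 to 0.81). Irf7, the factor that amplifies interferon genes, had a Dormant ratio of 0.25 (-0.59 to 1.08) and a Long-term dormant ratio of 1.15 (0.58 to 1.66).

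Interferon genes themselves were at or near 0. None of the 20 type I and III interferon genes reached 20 UMIs in either library. All Ifna genes and Ifnb1 were at 0 in the members, although 8 other cells of the stage table held 21 Ifnb1 UMIs. Ifnk had 2 UMIs in Dormant members and 1 in Long-term dormant, and the lambda interferon gene Ifnl2 had 2 in Dormant. A count of 0 allows up to 8.38 CPM in Dormant and 17.3 CPM in Long-term dormant (3 UMIs over the set). Interferon-stimulated genes had 2 of 8 past 2-fold higher in Dormant and 1 of 13 in Long-term dormant, with none lower, and medians of -0.03 and -1.01. The genes were Bst2 in both libraries and Cxcl10 in Dormant, where 1 member gave 94.9% of its UMIs. The Dormant median moved both ways, from -1.52 without members with other-type UMIs to 1.52 against Cd209a cells alone. Isg15 was at 0.07 (-0.96 to 1.07) and -1.01 (-3.07 to 0.22).

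Receptors known to tune interferon release were higher as a list. Past 2-fold higher were 5 of 12 in Dormant and 9 of 17 in Long-term dormant, none lower, with medians of 1.43 and 1.94. Against Cd209a cells alone the Dormant median was 0.58. Besides Bst2 they included Cd300c, an activating receptor (156 against 25.0 CPM, then 196 against 12.9 CPM), the inhibitory collagen receptor gene Lair1 (112 against 27.2 CPM, then 121 against 8.19 CPM), and the adaptor genes Blnk (2.36 and 2.75) and Tyrobp (1.25 and 1.69). Ptprs, a phosphatase receptor of plasmacytoid cells, was at 1.61 (0.88 to 2.44) and 2.35 (1.86 to 2.81). Among growth factor and cytokine receptors, 1 of 10 was past 2-fold higher and 1 lower in Dormant, and 2 of 12 higher in Long-term dormant (medians 0.85 and 0.27). Tgfbr1 had ratios of 2.62 and 1.73, Il7r 1.38 (0.61 to 2.25) and 2.69, and Csf2rb2 1.49 (0.70 to 2.37) and 2.05. Csf2ra, the GM-CSF receptor subunit, was lower at -1.78 and -2.31, and Flt3, the receptor for the dendritic growth factor, lay at 0.46 (-0.56 to 1.49) and -0.40 (-1.98 to 0.66).

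Most secretory genes had small positive ratios. Of 21 tested in each library, only Xbp1 was past 2-fold higher. Beyond counting error, 14 in Dormant and 11 in Long-term dormant were higher, where 18.9% and 13.1% of all genes tested were. In each library 1 was lower, where 11.8% and 6.23% of all genes were (medians 0.63 and 0.80). Xbp1, the factor that expands the endoplasmic reticulum, was at 544 against 113 CPM (log2 ratio 2.25, 1.81 to 2.74) and 358 against 59.9 CPM (2.58, 2.12 to 3.02). Sec61b, a subunit of the translocation channel, was at 0.63 and 0.57, and the chaperone gene Hspa5 at 0.32 and 0.82. Ighm, the immunoglobulin mu chain whose transcript is known in plasmacytoid cells, was at 835 against 284 CPM and 744 against 203 CPM, in 61 and 57 members.

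Genes of MHC class II presentation were lower than in conventional cells. Of the list, 5 of 8 genes in Dormant and 6 of 13 in Long-term dormant were past 2-fold lower and none higher, with medians of -1.60 and -2.33. H2-Aa was at 3663 against 13124 CPM (log2 ratio -1.84, -1.93 to -1.75) and 2308 against 12553 CPM (-2.44, -2.59 to -2.30). H2-Ab1 was at -2.16 and -2.33, the invariant chain gene Cd74 at -1.84 and -1.85, and the peptide exchange genes H2-DMa and H2-DMb1 at -1.72 and -1.48 in Dormant and -1.93 and -1.99 in Long-term dormant. The part of free RNA in these counts was not tested. Cd40, a costimulatory receptor, had 0 UMIs in the members of both libraries, against 14 and 61 UMIs in conventional cells. Against all other kept cells of Dormant the class II median was 0.32, and against those of Long-term dormant it was -0.61. MHC class I genes had none past 2-fold, with medians of -0.49 and -0.34.

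**Figure D4:**
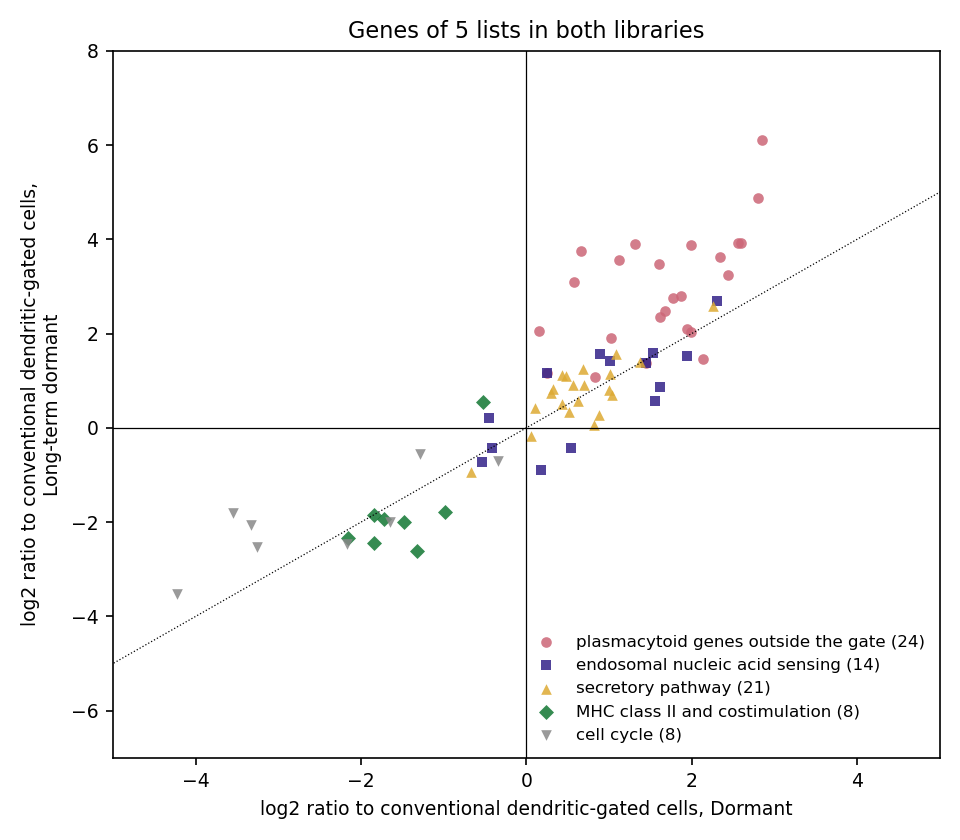
Log2 ratio of plasmacytoid over conventional dendritic cells in Dormant (x axis) and Long-term dormant (y axis), 1 point per gene tested in both libraries, for 5 gene lists with the number of genes in brackets; the dotted line marks equal ratios. Plasmacytoid genes lie to the upper right, up to Ly6d at 2.85 and 6.11, and most MHC class II and cell cycle genes lie to the lower left.

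Among homing genes, Ccr7, which was part of the reference gate, was past 2-fold lower in each library. The chemokine receptor gene Ccr2 lay at 0.17 (-0.35 to 0.68) and 0.36 (-0.07 to 0.75). Cytokine and chemokine genes had 1 of 8 past 2-fold higher and 4 lower in Dormant, and 1 of 14 higher and 4 lower in Long-term dormant (medians -1.60 and -2.32). Without genes over 5 times higher in another cell type of the library, the Dormant median was 1.71, the ratio of Cxcl9. A single member gave 79.6% of the Cxcl9 UMIs, and without members with other-type UMIs Cxcl9 was at -3.84 and Cxcl10 at -2.78. Il1b was lower at -2.41 and -3.61 and Ccl5 at -1.72 and -3.62, both with far higher levels in another cell type of the library. Ccl4, a chemokine for T and NK cells, was higher, at 274 against 136 CPM in Dormant (log2 ratio 1.00) and 1027 against 179 CPM in Long-term dormant (2.52, 2.26 to 2.78). Its UMIs were spread over 37 Dormant members but 18 Long-term dormant members, and it is a near neighbour in sequence of Ccl3. Tnf had 23 UMIs in 9 Long-term dormant members and 2 UMIs in Dormant members. Of the tolerance and killing list, Gzmb, Ido1 and Il10 were at 0 in both member sets, and none of the 4 genes tested in each library was past 2-fold. Cell cycle genes had 5 of 8 past 2-fold lower in Dormant and 2 of 16 in Long-term dormant, none higher (medians -2.72 and -1.67), with Top2a at 5 against 30 UMIs and 2 against 185 UMIs.

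Notch genes were listed because 1 library had an antibody to the Notch ligand Jagged-1. Of 5 tested in Dormant and 7 in Long-term dormant, 1 in each was past 2-fold higher, none lower, with medians of 0.81 and 0.02. With at least 2 Siglech UMIs per member the Dormant median was -1.11. That gene was Dll4, a Notch ligand (chromosome 2, 119325784 to 119335962), with 18 UMIs in 16 Dormant members against 2 UMIs in conventional cells (log2 ratio 3.19, 1.41 to 6.62), and 13 UMIs in 10 Long-term dormant members against 7 UMIs (4.59, 3.20 to 6.20). It had 17 UMIs in 5 of the 11 IgG members, 3 UMIs in 2 of the 8 Jag1 members, 2 UMIs in 1 Recurrent member and 0 in Primary. The receptor gene Notch2 was at -1.15 (-2.70 to 0.08) and -1.27 (-2.41 to -0.44). Hes1, a Notch target, had 43 UMIs in 10 Dormant members, 53.5% of them in 1 cell, and lay at 0.81 (0.11 to 1.54) there and 0.02 (-1.31 to 0.96) in Long-term dormant. Without members with other-type UMIs Hes1 was at -1.61 in Dormant and -3.23 in Long-term dormant. It had 0 UMIs in Primary, Recurrent, IgG and Jag1 members.

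Transitional dendritic genes, which mark cells between the lineages, had 1 of 9 past 2-fold higher and 5 lower in Dormant and 2 of 9 lower in Long-term dormant (medians -1.68 and -1.57, and 0.51 in Dormant against all other kept cells). The higher gene was Cd8a, whose product is found on some mouse plasmacytoid cells, and Cd209a of type 2 cells, which was part of the reference gate, lay at -1.73 and -1.65. Cd8a or its partner Cd8b1 had a UMI in 29 of 65 Dormant members (44.6%, 32.3 to 57.5%) and 5 of 72 Long-term dormant members (6.94%, 2.29 to 15.5%). The number was 6 of 9 among Primary members (66.7%, 29.9 to 92.5%) and 12 of 14 among Recurrent members (85.7%, 57.2 to 98.2%). After thinning to 1000 UMIs the shares were 25.0% for Dormant, 6.56% for Long-term dormant, 66.7% for Primary and 85.7% for Recurrent. Macrophages, which should lack both genes, had a UMI in 5.13% of Dormant (median 4977.5 UMIs), 0 of 139 Long-term dormant (3473), 0.587% of Primary (7435) and 0.860% of Recurrent cells (6835). Other Dormant sets were higher, at 11.6% of epithelial (8132), 9.89% of plasma (6210) and 15.2% of conventional dendritic cells (6057.5). All the positive Primary, Long-term dormant and Recurrent members, and 22 of the 29 in Dormant, had no UMI of Cd3d, Cd3g, Trac or Trbc2. In the antibody libraries, 2 of 5 positive IgG members and 2 of 4 positive Jag1 members had none. Among members without Cd8a or Cd8b1, 31 of 36 in Dormant and 65 of 67 in Long-term dormant had none. The Long-term dormant share with Cd8a or Cd8b1 lay below the members of the other 3 stages, and its interval overlapped none of theirs.

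Long-term dormant members were next set against Dormant members, a comparison added after seeing how many cells each library held. Of 3201 genes tested, 30 were past 2-fold higher in Long-term dormant (0.937%) and 42 lower (1.31%), with a median of 0.09. Of these 72 genes, 52 were over 5 times higher in another cell type of either library, and 60 had the same sign in all other kept cells of the 2 libraries. The matching shares among all 3201 genes tested were not computed. Across genes, the ratios in members and in other kept cells had a Pearson r of 0.47. The part of such library-wide differences in the members' values was not tested. Without the members that had UMIs of another type, 8 genes were higher and 11 lower of 1570 tested, and 5 of the 8 and 8 of the 11 had been called before.

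Runx2 (chromosome 17, 44495987 to 44814797) had the largest ratio among the higher genes that were not so abundant in another type. It had 60 UMIs in 36 of 72 Long-term dormant members and 18 UMIs in 16 of 65 Dormant members (log2 ratio 2.76, 2.00 to 3.63), although the Long-term dormant members held fewer UMIs in all. Without members with other-type UMIs it was at 2.99 (2.01 to 4.27), while in conventional cells the same ratio was 0.31 (-0.60 to 1.49) and in all other kept cells 0.04. In the smaller sets it had 9 UMIs in 5 of 9 Primary members and 23 UMIs in 11 of 14 Recurrent members. Irf8 was at 0.97 (0.67 to 1.27) in plasmacytoid cells and at -0.94 (-1.17 to -0.70) in conventional cells. Syk, the kinase downstream of Tyrobp, was at 1.99 (1.15 to 2.91), and St8sia4, a polysialyltransferase, at 1.61 (1.14 to 2.10), against 0.69 and -0.18 in conventional cells. In all other kept cells Syk was also higher, at 1.35, and St8sia4 was at -0.17. Ly6c2, whose reads may include Ly6c1, was at 1.32 (1.03 to 1.61) and at -0.55 in conventional cells. Zeb2, a repressor that plasmacytoid cells need, was at 1.92 (1.23 to 2.67) but also at 1.14 in conventional and 2.05 in all other kept cells. Ccl4 was at 1.90 (1.54 to 2.28), with 23.6% of the Long-term dormant UMIs in 1 member. Tcf4, which was part of the rule, was at 268 CPM in Dormant and 860 CPM in Long-term dormant, and Bst2 at a ratio of 0.85 (0.69 to 1.01). In Primary and Recurrent members, few as they were, Irf8 was at 2240 and 1700 CPM and Runx2 at 284 and 439 CPM. Bst2 was at 4102 and 3552 CPM there, and Tcf4 at 536 and 974 CPM. For Irf8, Runx2, Bst2 and Tcf4, Dormant members were thus the lowest of the stage libraries. This did not hold for every marker: Spib was lowest in Primary (94.7 CPM, 3 UMIs) and Ly6d in Long-term dormant (548 CPM). Pld4, Cd300c, Lair1 and Pacsin1 were lowest in Dormant, but each close to the next library.

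Among the lower genes that were not so abundant in another type, Hspa1b and Dnajb1 encode heat shock proteins, Odc1 the first enzyme of polyamine synthesis and Crem a cAMP-responsive factor. The list of genes known to respond to tissue handling had 4 of 18 past 2-fold lower and none higher in the members (median -0.78), and 5 lower and 2 higher of 18 in conventional cells. Hspa1a, a heat shock gene with a near-identical copy in Hspa1b, had 177 UMIs in Dormant members (494 CPM) and 0 in Long-term dormant, which allows up to 17.3 CPM. Dnajb1 was at -2.18 in plasmacytoid and -1.86 in conventional cells, and Crem at -2.10 and -0.99. In all other kept cells Dnajb1 was at -1.96, Crem at -2.53, Odc1 at -2.12 and Hspa1b at -2.27, so these falls were not particular to the members. Ly6d was at -1.04 (-1.39 to -0.72) in plasmacytoid and -4.31 (-5.17 to -3.57) in conventional cells. Xbp1 was at -0.60 (-1.04 to -0.19) and -0.93 (-1.40 to -0.43). Sh3bgr was lower too, at -1.32 (-2.17 to -0.62). Of the 24 plasmacytoid genes tested, 3 were past 2-fold higher and none lower (median 0.33), and of the 21 secretory genes none was past 2-fold.

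**Figure D5:**
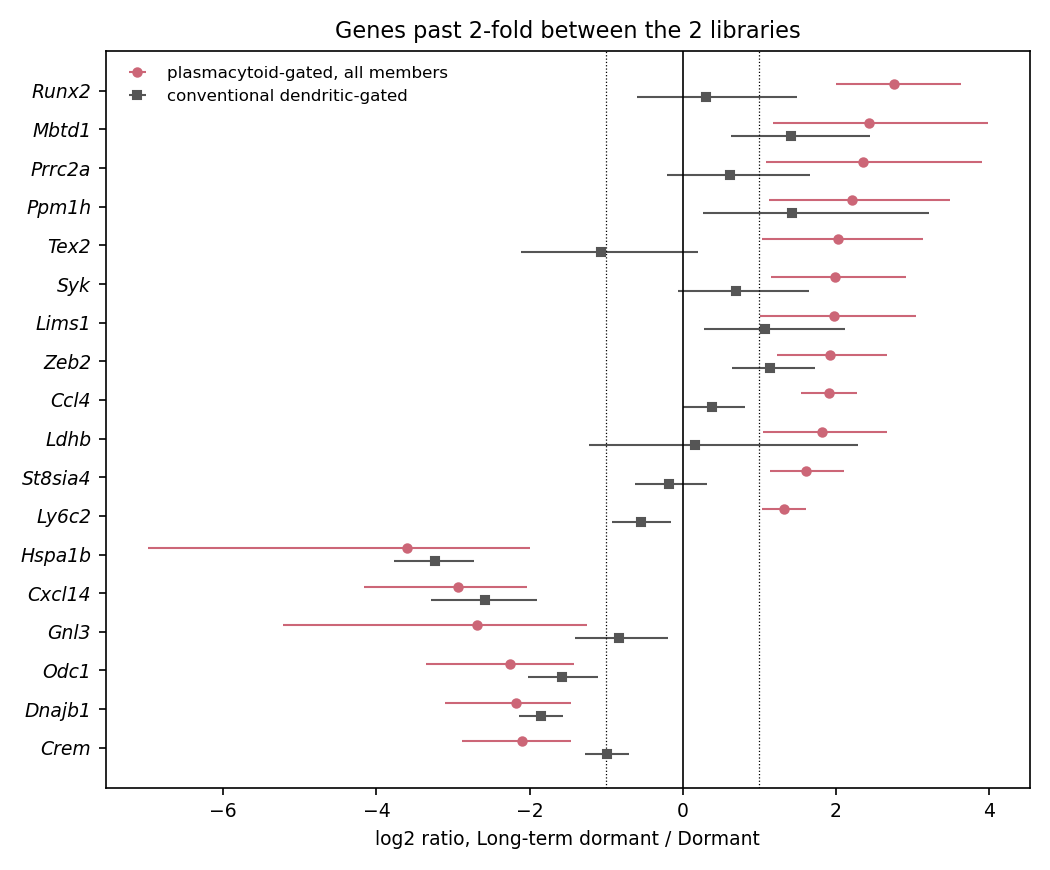
Log2 ratio of Long-term dormant over Dormant (x axis) in plasmacytoid members and in conventional dendritic cells, for 18 genes (y axis) past 2-fold between the member sets. Bars are exact 95% counting intervals and dotted lines mark 2-fold. Runx2 is at 2.76 in plasmacytoid and 0.31 in conventional cells, and Dnajb1 is below 0 in both.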

How the data were processed

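Droplet-based single-cell RNA sequencing covered 6 mouse libraries, each a group of its own by the labels. The authors deposited UMI counts per gene and cell in a table of the 4 stage libraries and another of the 2 antibody libraries, made with Cell Ranger 3.1.0 on mm10, per the submitters' processing notes. Other steps before deposit are not given in the sources used here. Depth was 14185689 to 41259292 UMIs per stage library, and doublets were not removed.

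The plasmacytoid rule, the gene lists and the comparisons were chosen with earlier results of these data known. Reference cells had no Siglech UMI, met the same limits, and had at least 2 UMIs of Xcr1 and Clec9a together, at least 1 of Cd209a, or at least 1 each of Fscn1 and Ccr7, thresholds set after the counts were seen. UMIs were summed per cell set and given per 1000000 (CPM). Log2 ratios had a prior of 0.5 UMIs and exact conditional Poisson intervals, shares exact Clopper-Pearson intervals, all at 95%. A gene was tested with at least 20 UMIs over both sets. With 1 library per group no p-value was computed. The code was tested on simulated data.

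Alternatives changed the Siglech, Tcf4 and C1q limits, the cell filter, doublet calls, the UMI minimum, the reference cells, the scaling and the weight per cell.

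Genes named were the 15 highest and 15 lowest Dormant ratios past 2-fold with a mean of at least 50 CPM, without rule genes, Xist, predicted genes, antigen receptor genes and those of haemoglobin, ribosomes and mitochondria, up to 5 members of each list by level and 3 by ratio, and any member of the plasmacytoid, sensing, transcription factor, interferon and Notch lists. Genes past 2-fold in both libraries, Cd8a with Cd8b1, Ighm and those named between Long-term dormant and Dormant were chosen after their values were seen. A gene over 5 times higher in another cell type of its library was treated as a candidate for free RNA. Python 3.11.15, NumPy 2.4.6, SciPy 1.17.1, Scanpy 1.11.5 and leidenalg 0.10.2 were used, with GENCODE M21 and RefSeq for positions and sequence. A few results are not reported here.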

Additional observations from a re-analysis of the deposited data

Results flagged for a closer look

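Saa3, which encodes a secreted acute phase protein, went opposite ways in the 2 residual-tissue libraries. In Dormant it had 80 UMIs in plasmacytoid cells against 3 in conventional dendritic cells, a log2 ratio of 4.82 (3.44 to 7.34). In Long-term dormant it had 1 UMI against 300, a log2 ratio of -3.90. Of the 80 UMIs, 79 came from 1 member, and the gene was at 4700 CPM in Dormant monocytes. The difference between the libraries was not tested.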

How the results depend on the processing

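With 1 library per group no replicate could be left out, and no paired analysis was possible because each group has 1 library. Of the alternative values computed, 18 of 28 shares, 187 of 219 list medians and 23 of 36 gene counts stayed close to the value reported, and the cause of each move below was not tested. Shares of kept cells moved with the rule. With at least 2 Siglech UMIs, Dormant was at 1.10% and Long-term dormant at 0.466%. With C1q at 0, Recurrent was at 0.149%. Without the Cd3e, C1q and Epcam limits, Primary was at 0.462%, Dormant at 3.69% and Recurrent at 0.512%. Without members with other-type UMIs, Dormant was at 1.31%, Long-term dormant at 0.883%, Recurrent at 0.107% and Primary at 0.0462%. Dormant was highest under all 7 alternatives run.

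Counts of Dormant genes past 2-fold moved as well. There were 109 lower without members with other-type UMIs, 49 higher and 35 lower with at least 100 UMIs, 66 higher against Cd209a cells alone, and 250 higher and 132 lower against all other kept cells. In Long-term dormant there were 79 higher with at least 100 UMIs and 128 lower without other-type members, and between the member sets 8 higher and 11 lower without other-type members, 48 higher with at least 5 UMIs, and 8 higher and 13 lower with at least 100 UMIs, all alternatives added after seeing the data.

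Medians of the Dormant lists that lay beyond 1.5-fold changed sign in 6 cases. The Notch median was -1.11 with at least 2 Siglech UMIs, and against all other kept cells it was -0.33, MHC class II 0.32, cytokines 0.024 and transitional genes 0.51. Cytokines were at 1.71 without candidates for free RNA. Other medians moved, some of those nearer 0 across it. With at least 2 Siglech UMIs, interferon-stimulated genes were at -0.82 and cell cycle at -2.04. With C1q at 0, Notch was at 0.18. Without the 3 limits, interferon-tuning receptors were at 0.59, cytokines at -0.14 and cell cycle at -1.46. Without other-type members, interferon-stimulated genes were at -1.52, transcription factors at -1.20, tolerance at -0.45 and cytokines at -3.87. With at least 5 UMIs, tolerance was at -0.55, and with at least 100, interferon-stimulated genes were at 0.96. Against Cd209a cells, plasmacytoid genes were at 1.00, interferon-stimulated genes 1.52, receptors 0.58, cytokines -0.62 and Notch 1.92. Against all other kept cells, plasmacytoid genes were at 2.35, transcription factors 0.66, tolerance -1.21 and cell cycle -1.84. Without free-RNA candidates, interferon-stimulated genes were at 1.20 and cell cycle at -1.47. With equal weight per cell, interferon-stimulated genes were at -0.79, cytokines -2.60 and Notch 0.20. Reference cells of type 1 or migratory gates alone were not run, with fewer than 30 Dormant cells in each, nor were gene counts at equal weight. Depth limits Primary and Recurrent, whose 9 and 14 members gave UMI counts but no ratios.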
